A study of Mus musculus with 4 samples.

Results

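The keratins are the intermediate filament proteins of epithelial cells, and their RNA was followed here in mammary tumors and mammary glands of Sca-1 knockout and wild-type mice. A probe set was taken as a member when its single gene symbol was Krt followed directly by a digit. The rule found 49 of the 22690 probe sets on the array, and they stand for 40 of 12394 named genes. The probe set with the brightest mean log2 level over the 4 arrays stands for each gene.

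The mice were female, nulliparous and of C57BL/6 background, and the wild types were littermates of the same age. The 4 groups were Sca-1 KO mammary tumor, wild-type mammary tumor, Sca-1 KO mammary gland and wild-type mammary gland, each a pool of equal amounts of RNA from 5 mice on 1 array. For the tumors the labels name the treatment MP-DMBA, that is 15 mg of MP (Depo-Provera, a depot progestin) under the skin and then DMBA, a carcinogen of the polycyclic aromatic kind, by gavage at 1 mg in each of 4 weekly doses. The glands were of mice of 6 weeks and their group labels name no carcinogen, so tumor and gland also differ in treatment, and no age is given for the tumor-bearing mice. The knockout covers the whole animal as far as the labels say. The Sca-1 gene itself was not analysed here, so the genotype labels were not checked against it. With 1 array per group there are no replicates, no test was possible, and each difference below is a difference between 2 arrays.

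A keratin filament is built from pairs of a type I and a type II chain, and each kind of epithelium makes its own pairs. Simple epithelia, such as the luminal cells that line mammary ducts, make Krt8 and Krt18 together with Krt7 and Krt19. Basal cells of stratified epithelia and mammary myoepithelial cells make Krt5 and Krt14, epidermal cells that leave the basal layer switch to Krt1 and Krt10, and wounded or overgrowing epidermis adds Krt6a, Krt6b, Krt16 and Krt17. The sheaths and shaft of the hair have further keratins of their own.

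Fold differences are on the scale of log2(signal + 27.3), which understates the difference of dim genes. The added 27.3 is the lower quartile over the 4 arrays. A gene was compared where at least 1 of the 2 arrays had a signal of 168 or more, the median of all values, here called the floor. It was called higher or lower at a difference of 2-fold or more. Of the 40 keratin genes, 7 reached the floor on all 4 arrays, 11 on 1 to 3 arrays and 22 on none. The floor was reached by 12 keratins in the KO tumor, 16 in the wild-type tumor, 10 in the KO gland and 9 in the wild-type gland. All 4 simple, all 3 basal and all 4 stress and wound keratins were among the 18 that reached it on any array, with 4 of 6 suprabasal, 1 of 5 inner root sheath and companion layer and 1 of 12 hair shaft keratins, and Krt23.

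The arrays themselves differed in ways that bear on dim genes. Median signals lay between 151 and 199, and lower quartiles were 17.9 in the KO tumor and 18.5 in the wild-type tumor, against 44.2 in the KO gland and 34.6 in the wild-type gland. For beta-actin, the 3' control probe set divided by the 5' one, a sign of RNA integrity, ran from 1.23 to 2.35 and was highest in the wild-type gland. Between the 2 brightest probe sets of a gene, the median gap in the log2 difference was 0.17 in 2336 genes for the tumor genotypes and 0.24 in 2474 genes for the gland genotypes, and 0.45 in knockout and 0.48 in wild type between tumor and gland. Variation between mice, or between pools, is not part of this gap.

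Krt1 and Krt10 of the suprabasal epidermis, Krt6b and Krt16 of the wound response and Krt25 of the inner root sheath had far lower signals in the KO tumor than in the wild-type tumor. Krt27, also of the inner root sheath, had 1.9 in the KO tumor and 142 in the wild-type tumor, both below the floor. The remaining members of these groups were not far lower, and the simple and basal keratins lay within 2-fold. Of 16 keratins compared between the tumors, 5 were lower in the KO tumor (Krt1, Krt6b, Krt10, Krt16 and Krt25), 1 was higher (Krt17) and 10 lay within 2-fold. The share of all 7283 genes compared was 1.95% for lower and 2.17% for higher. Of the 5 lower keratins, 4 reached the floor in the wild-type tumor alone of these 2 arrays, and such genes had to differ in order to be compared at all. The median log2 difference over all 40 keratins, dim ones included, was -0.02, and over all genes it was 0.01. In bulk RNA, fewer cells of a type and less RNA per cell cannot be told apart.

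**Figure D1:**
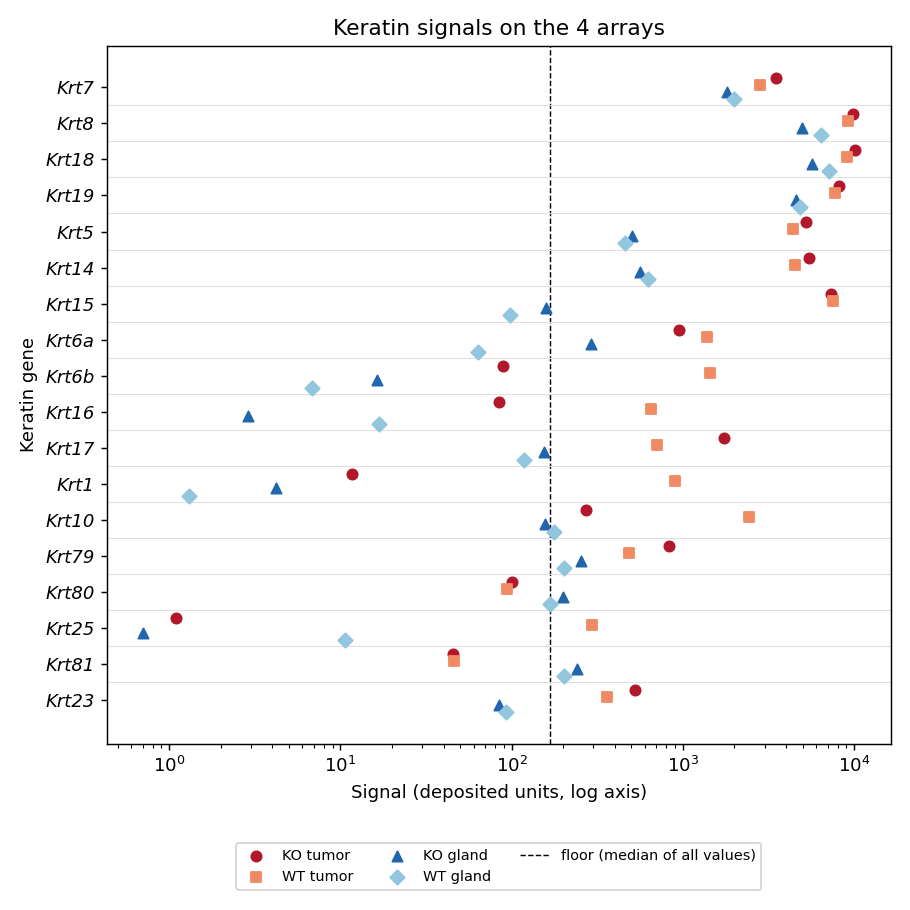
Signals in deposited units (log axis) of the 18 keratins that reached the floor of 168 (dashed line) on any array, with 1 point per array and genes ordered as simple, basal, stress and wound, suprabasal, inner root sheath, hair and other. The simple keratins lie within a narrow band on all 4 arrays, the basal keratins separate tumors from glands, and Krt1, Krt6b, Krt10, Krt16 and Krt25 stand far to the right in the wild-type tumor.

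The simple keratins were bright on all arrays and, by the probe sets that stand for them, lay within 2-fold in every comparison as scaled here. Krt8, the type II chain of simple epithelia, had a signal of 9811 in the KO tumor and 9258 in the wild-type tumor, against 4987 in the KO gland and 6398 in the wild-type gland. Its type I partner Krt18 had 10099 in the KO tumor, 9061 in the wild-type tumor, 5641 in the KO gland and 7159 in the wild-type gland. Both lay higher in the tumors than in the glands of the same genotype, by less than 2-fold, although a common median for all arrays took all 4 simple keratins past 2-fold between the KO tumor and the KO gland.

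Krt19, the smallest type I keratin and a common marker of ductal cells, had 8163 in the KO tumor, 7690.1 in the wild-type tumor, 4571 in the KO gland and 4829 in the wild-type gland. Krt7, a type II keratin of ducts and glands, had 3476 in the KO tumor, 2804 in the wild-type tumor, 1807 in the KO gland and 1998 in the wild-type gland. In the comparison of the tumors, the 4 log2 differences were between 0.08 (Krt8) and 0.31 (Krt7). Between the glands they were between -0.36 (Krt8) and -0.08 (Krt19), and quantile normalization turned that of Krt19 to 0.06. All 8 of these values were within 2-fold.

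The other 2 probe sets of Krt8 gave log2 differences of 0.09 and 0.14 between the tumors and -0.19 and -0.41 between the glands. Between the KO tumor and the KO gland they gave 1.01 and 1.16, past 2-fold, where the probe set that stands for Krt8 gave 0.97. The summed signal of 9 luminal genes was 27466 in the KO tumor and 24190.3 in the wild-type tumor, against 9127 in the KO gland and 11409 in the wild-type gland, with 7 of 9 at or above the floor on each array. Of the 7 compared between the glands, 1 was lower in the KO gland, where 0.261% of all genes were lower. It was the pioneer transcription factor Foxa1, at 1239 against 2842 in the wild-type gland. Against the gland of the same genotype, 7 of 7 compared were higher by 2-fold or more in the KO tumor and 4 of 7 in the wild-type tumor. Of all genes 12.4% were higher in knockout and 12.9% in wild type.

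The basal keratins set the tumors apart from the glands and differed little between the genotypes. Krt5 had signals of 5245 in the KO tumor and 4367 in the wild-type tumor, against 501 in the KO gland and 458 in the wild-type gland. Its partner Krt14 had 5448 in the KO tumor, 4518 in the wild-type tumor, 562 in the KO gland and 624 in the wild-type gland. For each of them both tumors lay above both glands.

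Krt15, a type I keratin of basal cells of skin and hair follicle bulge, had 7309 in the KO tumor and 7545 in the wild-type tumor, against 158 in the KO gland and 98.2 in the wild-type gland. Both glands were thus below the floor for Krt15 while both tumors were among the brighter signals of the array. It was 39.6-fold higher in the KO tumor than in the KO gland, the third largest increase of 8122 genes, and 60.3-fold higher in the wild-type tumor than in the wild-type gland, ranked 4 of 7873. With both glands below the floor these sizes depend on the offset, and the log2 differences ranged over the alternatives from 4.52 to 5.64 around 5.31 in knockout and from 4.86 to 6.25 around 5.92 in wild type. Krt5 was 9.98-fold higher in the KO tumor than in the KO gland and 9.05-fold higher in the wild-type tumor than in the wild-type gland.

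Between the tumors, the log2 difference was 0.26 for Krt5, 0.27 for Krt14 and -0.05 for Krt15. Between the glands it was 0.12 for Krt5, which turned to -0.12 once all arrays were given a common median, -0.14 for Krt14, and 0.56 for Krt15 with both signals below the floor. Krt14 had a second bright probe set, with 4771 in the KO tumor, 4115 in the wild-type tumor, 336 in the KO gland and 344 in the wild-type gland, and a dim one with signals between 21.8 and 69.0. The dim one showed no separation of tumors from glands, and with all 3 averaged the Krt14 difference between the tumors became -0.02.

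Myoepithelial markers were unevenly placed beside the basal keratins. The 6 of them summed to 22844 in the KO tumor and 29896 in the wild-type tumor, against 11421 in the KO gland and 11175 in the wild-type gland. In the KO tumor 2 of 5 compared were lower than in the wild-type tumor, the smooth muscle myosin Myh11 and the calponin Cnn1, where 1.95% of all genes were lower. The transcription factor Trp63, needed for basal cell identity, had 1631 in the KO tumor, 1678 in the wild-type tumor, 436 in the KO gland and 508 in the wild-type gland, an order of tumors over glands like that of Krt5.

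The 4 stress and wound keratins did not move as a set. Krt6b had signals of 89.3 in the KO tumor, 1434 in the wild-type tumor, 16.4 in the KO gland and 6.8 in the wild-type gland, so the wild-type tumor alone was bright. It was 12.5-fold lower in the KO tumor than in the wild-type tumor, ranked 8 of 7283 among decreases, with a log2 difference of -3.65 that ranged from -3.99 to -2.64 over the alternatives. Krt16, the usual type I partner of the Krt6 chains, had 84.2 in the KO tumor, 647 in the wild-type tumor, 2.9 in the KO gland and 16.7 in the wild-type gland. It was 6.04-fold lower in the KO tumor, again with the wild-type tumor as the bright array, and its log2 difference of -2.60 ranged from -2.93 to -1.69.

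Krt17, a type I keratin of injured epidermis and of hair follicles, went the other way. It had 1737 in the KO tumor, 702 in the wild-type tumor, 154 in the KO gland and 117 in the wild-type gland, and was 2.42-fold higher in the KO tumor than in the wild-type tumor. A second Krt17 probe set was dim throughout, with 13.4 in the KO tumor and 14.2 in the wild-type tumor, and when both were averaged the log2 difference was 0.62 and no longer reached 2-fold. Krt16 and Krt17 are next to each other among the type I keratin genes in RefSeq's annotation, and they differed in opposite directions. Their coding sequences are similar, and how far their probe sets share targets is uncertain.

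Krt6a differed in the gland rather than in the tumor. It had 942 in the KO tumor and 1387 in the wild-type tumor, against 289 in the KO gland and 63.8 in the wild-type gland. The wild-type gland was thus below the floor and the other 3 arrays above it. Of 11 keratins compared between the glands Krt6a was the 1 that was higher in the KO gland, at 3.47-fold, ranked 7 of 7661 among increases, and none was lower. The share of all 7661 genes was 0.992% for higher and 0.261% for lower. Its log2 difference of 1.80 ranged from 0.98 to 2.16 over the alternatives, and the call was lost with the median of all values as offset and with the mean of all probe sets. In the tumors the Krt6a log2 difference was -0.54.

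The 3 Krt6a probe sets gave the same signs. Their log2 differences between the glands were 1.80, 1.16 and 1.36, the last with both signals (52.7 in the KO gland and 3.8 in the wild-type gland) below the floor, and between the tumors -0.54, -0.58 and -0.66. Krt6a and Krt6b are neighbouring genes of near-identical sequence, and part of each signal may come from the other gene. Their patterns were nevertheless unlike, since Krt6b stayed below the floor in both glands and in the KO tumor. Markers of keratinising epidermis did not lie higher in the KO gland. Their 8 members summed to 302 in the KO gland and 370 in the wild-type gland, with 0 and 1 at or above the floor.

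**Figure D2:**
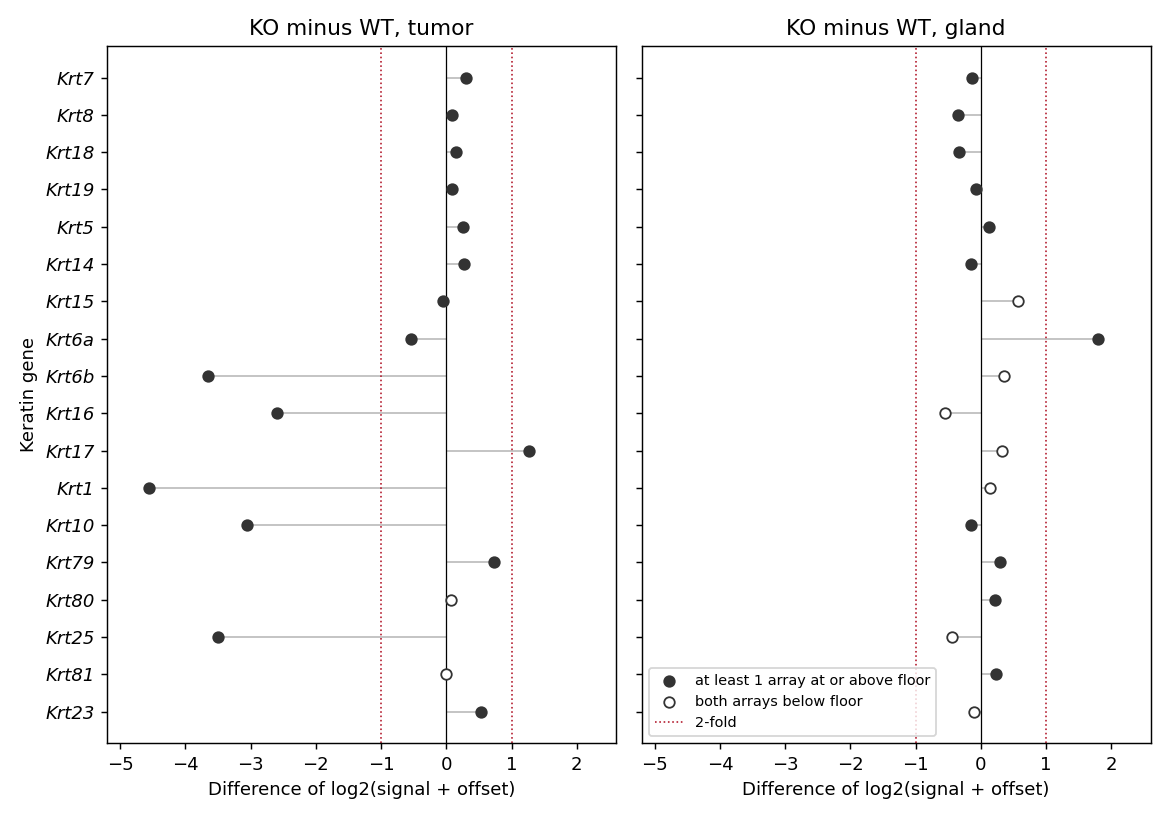
Log2 difference of KO minus WT for the same 18 keratins in the tumor (left) and in the gland (right), with filled points where at least 1 of the 2 arrays reached the floor, open points where neither did, and dotted lines at 2-fold. In the tumor 5 keratins lie beyond 2-fold on the lower side and Krt17 on the higher side, while in the gland Krt6a alone passes 2-fold.

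Krt1 and Krt10, the pair of the suprabasal epidermis, were both far lower in the KO tumor than in the wild-type tumor. Krt1, the type II chain of differentiating epidermis, had signals of 11.7 in the KO tumor, 894 in the wild-type tumor, 4.2 in the KO gland and 1.3 in the wild-type gland. It was 23.6-fold lower in the KO tumor than in the wild-type tumor, ranked 2 of 7283 among decreases. Because its KO signal was close to background the size depends on the offset, with a log2 difference of -4.56 that ranged from -6.14 to -2.56 over the alternatives.

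Krt10, its type I partner, stayed above the floor in both tumors. It had 272 in the KO tumor, 2447 in the wild-type tumor, 157 in the KO gland and 177 in the wild-type gland, and was 8.27-fold lower in the KO tumor than in the wild-type tumor. The KO tumor thus lay nearer to the glands than to the wild-type tumor. Its log2 difference of -3.05 stayed between -3.17 and -2.57 over the alternatives in which it had a value. The only Krt10 probe set is a possibly shared one, so Krt10 dropped out of the alternative without such probe sets.

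Other suprabasal keratins did not share this pattern. Krt79, a type II keratin known in mouse from the hair follicle canal and its funnel, had 824 in the KO tumor and 483 in the wild-type tumor, against 254 in the KO gland and 201 in the wild-type gland. It was the highest in the KO tumor, where Krt1 and Krt10 were low. Krt80, a widely expressed type II keratin, had 101 in the KO tumor, 94.5 in the wild-type tumor, 198 in the KO gland and 167 in the wild-type gland. Krt2, of the late epidermis, and Krt77 were below the floor on all arrays, with signals between 0.7 and 92.1.

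Markers of keratinising epidermis lay lower in the KO tumor together with these keratins. Their 8 genes summed to 492 in the KO tumor and 4918 in the wild-type tumor, with 1 and 6 at or above the floor. Of the 6 compared, 5 were lower in the KO tumor, against 1.95% of all genes. The 5 were Lor, Flg, Krtdap, Calm4 and Sprr1b. All 5 reached the floor in the wild-type tumor alone of these 2 arrays, so they had to differ in order to be compared. Krtdap, a secreted protein of differentiating keratinocytes, had 25.5 in the KO tumor and 654 in the wild-type tumor, and the cornified envelope protein Lor had 24.5 and 392 in the same order. The involucrin gene Ivl, another marker, stayed at 1.4 to 2.1 on all 4 arrays. Whether the amount of keratinising epithelium in each pool bears on the keratin differences was not tested.

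Among keratins of the hair follicle, Krt25 was bright in the wild-type tumor alone, and it was the 1 of 5 inner root sheath and companion layer keratins to reach the floor. Krt25, a type I keratin of the inner root sheath, had 1.1 in the KO tumor, 293 in the wild-type tumor, 0.7 in the KO gland and 10.6 in the wild-type gland, and was 11.3-fold lower in the KO tumor than in the wild-type tumor. Krt27, a related keratin of the same sheath, had 1.9 in the KO tumor, 142 in the wild-type tumor, 2.6 in the KO gland and 7.9 in the wild-type gland. Krt27 was likewise highest in the wild-type tumor but stayed below the floor. The log2 difference of Krt25, -3.50, ranged from -7.13 to -1.45 over the alternatives.

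Their type II counterpart Krt71 had 61.5 in the KO tumor, 93.8 in the wild-type tumor, 60.3 in the KO gland and 66.1 in the wild-type gland. It thus showed little of their excess in the wild-type tumor. Krt72 and Krt75, of the inner root sheath and the companion layer, had signals between 7.5 and 50.9. Trichohyalin, Tchh, a protein that binds keratin filaments in the inner root sheath, had 28.9 in the KO tumor and 294 in the wild-type tumor, against 15.7 in the KO gland and 14.2 in the wild-type gland. The summed signal of 8 hair follicle markers, Tchh among them, was 564 in the KO tumor and 586 in the wild-type tumor, against 416 in the KO gland and 427 in the wild-type gland, with 1, 2, 0 and 1 at or above the floor. The near-equal tumor sums hide opposite directions, since Msx2 had 337 in the KO tumor and 178 in the wild-type tumor. Among the markers below the floor in both tumors, Padi3, Foxn1, Hoxc13, Dlx3 and Lef1 were higher in the KO tumor and S100a3 was lower.

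Hair shaft keratins were dim in both tissues. Of 12 genes, 11 stayed below the floor on all arrays, with signals from 0.6 to 46.5 in the KO tumor, 0.7 to 49.3 in the wild-type tumor, 1.7 to 151 in the KO gland and 2.9 to 134 in the wild-type gland. Krt81, a type II keratin of the hair cortex, had 45.3 in the KO tumor and 45.9 in the wild-type tumor, against 239.7 in the KO gland and 201 in the wild-type gland. It was 3.68-fold lower in the KO tumor than in the KO gland and 3.12-fold lower in the wild-type tumor than in the wild-type gland. With the median of all values as offset, the log2 differences of -1.88 in knockout and -1.64 in wild type became -0.93 and -0.79, within 2-fold, and Krt81 was not compared with the floor at the 60th percentile. The low end of both gland arrays also lay above that of the tumor arrays, and whether this bears on Krt81 was not tested.

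Of the keratin-associated proteins that pack the hair shaft, 26 Krtap genes were measured and 1 reached the floor on any array. They summed to 168 in the KO tumor and 246 in the wild-type tumor, against 658 in the KO gland and 566 in the wild-type gland. Krt4, Krt12 and Krt13, of mouth, oesophagus and cornea, lay between 1.1 and 25.7 on all arrays. Krt20, of the gut lining and bladder, lay between 14.4 and 23.1, and Krt88 between 66.3 and 102. Krt23, another type I keratin, had 528 in the KO tumor and 358 in the wild-type tumor, against 83.8 in the KO gland and 92.3 in the wild-type gland.

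The sequences before the start of 5 of the keratin genes with a promoter window are shown as examples. Krt10, Krt25 and Krt27 are type I genes with far higher signals in the wild-type tumor, although Krt27 stayed below the floor. Krt5 and Krt14 were bright in both tumors and lay within 2-fold. No window was matched for Krt1, Krt6b, Krt16 or Krt17, so these examples give no comparison between groups of keratins. The windows run from 250 bases before to 50 bases after the annotated start on the minus strand, from RefSeq, build GRCm38.p6, at chr11:99389315-99389614 (Krt10), chr11:99322902-99323201 (Krt25), chr11:99351069-99351368 (Krt27), chr15:101712856-101713155 (Krt5) and chr11:100205981-100206280 (Krt14). They were searched on both strands for TATAAA, the core of the TATA box, for the AP-1 motif TGANTCA and for the AP-2 motif GCCNNNGGC. Capitals mark the matches, all of which are TATAAA.
Krt10: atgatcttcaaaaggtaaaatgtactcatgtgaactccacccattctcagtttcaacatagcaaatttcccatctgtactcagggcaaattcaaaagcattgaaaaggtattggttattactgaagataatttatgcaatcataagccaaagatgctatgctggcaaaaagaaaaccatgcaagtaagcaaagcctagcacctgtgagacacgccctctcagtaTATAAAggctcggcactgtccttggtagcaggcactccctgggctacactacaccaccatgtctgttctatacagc
Krt25: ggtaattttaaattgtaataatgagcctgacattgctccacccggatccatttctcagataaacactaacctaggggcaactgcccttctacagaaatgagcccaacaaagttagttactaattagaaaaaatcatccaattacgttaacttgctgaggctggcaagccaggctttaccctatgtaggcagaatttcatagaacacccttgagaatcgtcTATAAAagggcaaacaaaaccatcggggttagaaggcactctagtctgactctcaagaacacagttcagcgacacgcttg
Krt27: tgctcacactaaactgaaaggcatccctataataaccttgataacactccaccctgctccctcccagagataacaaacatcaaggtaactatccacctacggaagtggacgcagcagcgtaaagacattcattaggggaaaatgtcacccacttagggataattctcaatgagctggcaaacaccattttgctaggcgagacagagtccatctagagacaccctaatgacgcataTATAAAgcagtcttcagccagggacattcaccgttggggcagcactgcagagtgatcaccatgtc
Krt5: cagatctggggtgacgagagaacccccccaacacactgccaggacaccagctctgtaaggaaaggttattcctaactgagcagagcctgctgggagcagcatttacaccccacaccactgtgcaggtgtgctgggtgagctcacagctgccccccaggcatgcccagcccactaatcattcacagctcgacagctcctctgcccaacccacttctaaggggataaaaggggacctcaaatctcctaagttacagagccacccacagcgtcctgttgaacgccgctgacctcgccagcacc
Krt14: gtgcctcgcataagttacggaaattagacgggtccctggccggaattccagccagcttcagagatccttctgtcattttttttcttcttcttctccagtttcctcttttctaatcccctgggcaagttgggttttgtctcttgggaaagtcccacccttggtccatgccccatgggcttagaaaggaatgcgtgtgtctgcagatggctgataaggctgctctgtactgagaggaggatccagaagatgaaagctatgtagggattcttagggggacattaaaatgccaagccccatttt

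TATAAA began 26 bases before the annotated start in Krt10, 30 before it in Krt25 and 15 before it in Krt27, and these letters were not in the windows of Krt5 and Krt14. Promoter windows were matched by symbol for 25 of the 40 keratin genes, with 26 windows in all. TATAAA was in those of 13 genes, against 13.6% of all 32851 promoter windows of the same length. AP-1 letters were in windows of 1 keratin gene (Krt13), against 7.81% of all windows, and AP-2 letters in 3 (Krt7, Krt18 and Krt72), against 16.6%. The keratin genes with TATAAA included bright and dim ones, such as Krt8 and Krt31. Not all matches lay at places like those in Krt10, Krt25 and Krt27. Those of Krt8 began at -3 and -1 from the start, and those of Krt72 and Krt84, on the other strand, at -203 and -206. A match describes the letters and is no evidence of binding.

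Partner chains moved together in some pairs and apart in others. Krt8 and Krt18 differed between the tumors by 0.08 and 0.16, and Krt5 and Krt14 by 0.26 and 0.27. In the pair Krt1 and Krt10 both chains were lower in the KO tumor, by log2 differences of -4.56 and -3.05. For the wound keratins the result depended on how the chains were paired. As paired here they lay apart, with Krt6a at -0.54 beside Krt16 at -2.60, and Krt6b at -3.65 beside Krt17 at 1.28. Krt6b and Krt16, however, were both lower in the KO tumor.

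**Figure D3:**
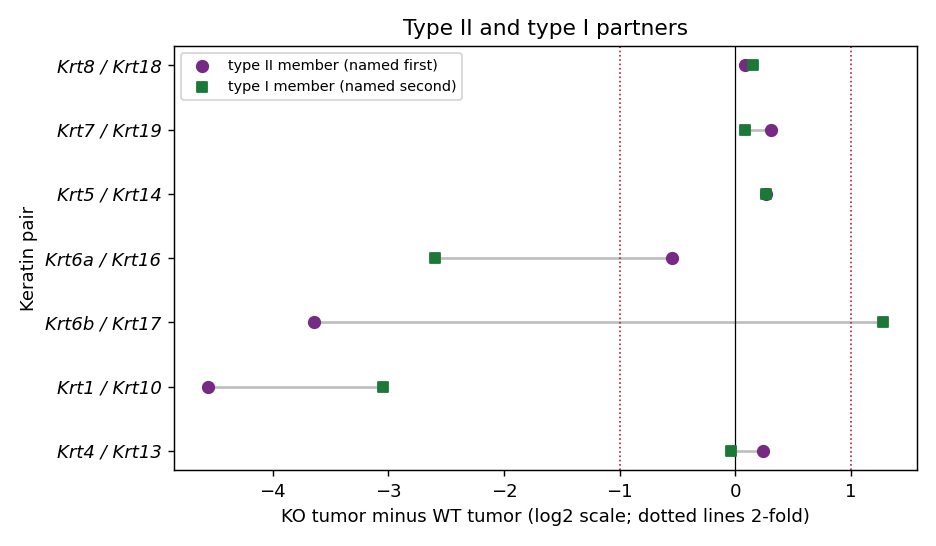
Log2 difference of KO tumor minus WT tumor for the type II member (circle) and the type I member (square) of 7 keratin pairs, with dotted lines at 2-fold. The circle and square lie close together for Krt8 with Krt18 and Krt5 with Krt14, both lie far to the left for Krt1 with Krt10, and they fall on opposite sides of 0 for Krt6b with Krt17. Krt4 and Krt13 were below the floor in both tumors.

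Between the glands, Krt6a again stood apart from Krt16. The log2 difference of Krt6a was 1.80. That of Krt16 was -0.54, with signals of 2.9 in the KO gland and 16.7 in the wild-type gland, both below the floor. The other pairs with a member above the floor differed between the chains by 0.29 or less in size. Between the tumors and glands of wild type, Krt6a and Krt16 had almost the same difference, 3.96 and 3.94.

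Set against the gland of the same genotype, both tumors had higher levels of several keratins, and more members were past 2-fold in wild type. Of 14 keratins compared in knockout, 7 were higher in the tumor, 1 was lower (Krt81) and 6 lay within 2-fold, and of all 8122 genes 12.4% were higher and 18.0% lower. Of 17 compared in wild type, 12 were higher, 1 was lower (Krt81) and 4 lay within 2-fold, and of all 7873 genes 12.9% were higher and 16.3% lower. As between the tumors, many of these reached the floor on 1 array of the pair alone. In wild type the gland was below the floor for Krt1, Krt6a, Krt6b, Krt15, Krt16, Krt17, Krt23 and Krt25. In knockout the gland was below it for Krt15, Krt17 and Krt23. Krt81 reached it in the glands alone. The 7 higher in the KO tumor were Krt5, Krt6a, Krt14, Krt15, Krt17, Krt23 and Krt79, and all 7 were also among the 12 of wild type. The other 5 of wild type were Krt1, Krt6b, Krt10, Krt16 and Krt25. Of these, Krt6b was also 2.67-fold and Krt16 3.69-fold higher in the KO tumor than in the KO gland. Both were below the floor on these 2 arrays and so were not compared in knockout. Over all 40 keratins, the median log2 difference was 0.01 in knockout and 0.36 in wild type, against -0.17 and -0.13 over all genes.

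Relative to Krt18 on the same arrays, the basal keratins differed more. Krt5 differed between tumor and gland by 2.48 more than Krt18 in knockout and by 2.84 more in wild type, on the log2 scale. Krt15 exceeded Krt18 by 4.47 in knockout and by 5.58 in wild type. Krt7, Krt8 and Krt19 differed from Krt18 by at most 0.33 in size in either genotype. The ratio within an array therefore shows that basal and simple keratins changed by unequal amounts.

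Fat and muscle markers were bright in the glands and far dimmer in the tumors. The 4 measured adipocyte markers summed to 2472 in the KO tumor and 3722 in the wild-type tumor, against 25613 in the KO gland and 27105 in the wild-type gland. Skeletal muscle markers summed to 665 in the KO tumor and 243 in the wild-type tumor, against 33844 in the KO gland and 35408 in the wild-type gland. The 6 salivary-type genes summed to 3231 in the KO gland and 26375 in the wild-type gland, while 5 leukocyte markers summed to 7351 and 4553 in the same order. The part of these differences in tissue makeup in the keratin differences was not tested.

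**Figure D4:**
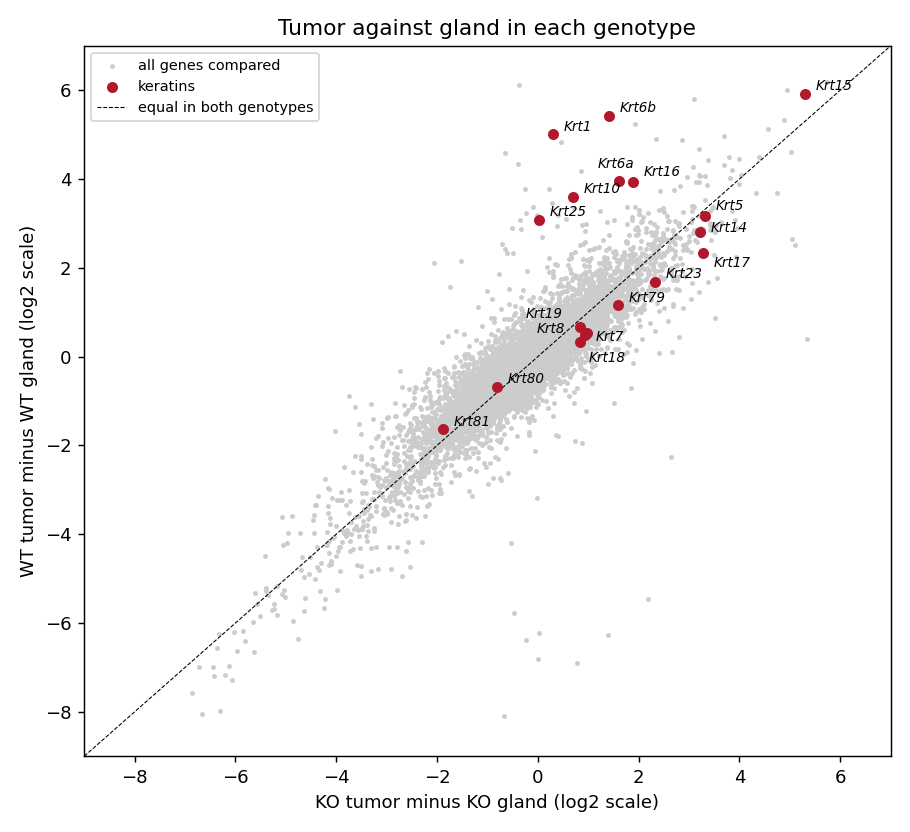
Log2 difference of tumor minus gland in knockout (horizontal axis) and in wild type (vertical axis) for the 18 keratins (labelled points) and for all genes compared (grey), with a dashed line where both genotypes are equal. Krt5, Krt14, Krt15 and the simple keratins lie near the line, and Krt1, Krt6b, Krt10, Krt16, Krt25 and Krt6a lie above it, with larger differences in wild type.

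Of 12 proteins that bind keratin filaments, all 12 were compared between the tumors, 3 were lower in the KO tumor, against 1.95% of all genes, and none was higher. The 3 were the epidermal filament-bundling protein Flg, with 5.0 in the KO tumor and 217 in the wild-type tumor, Tchh, and the cornified envelope plakin Ppl, with 289.6 in the KO tumor and 691 in the wild-type tumor. Flg and Tchh reached the floor in the wild-type tumor alone of these 2 arrays. Desmoplakin, Dsp, which ties keratin filaments to desmosomes, had 4701 in the KO tumor and 3270.4 in the wild-type tumor, against 1151 in the KO gland and 1536 in the wild-type gland. It was higher than in the gland in both genotypes. Between the glands 9 partners were compared and none passed 2-fold, where 0.992% of all genes were higher and 0.261% lower.

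Of 16 regulators of keratin genes, 11 were compared between the tumors and none passed 2-fold, where 2.17% of all genes were higher and 1.95% lower. In the glands 1 of 11 did, Foxa1, which was lower in the KO gland, as were 0.261% of all genes. Against the gland of the same genotype, 6 of 11 were higher and 2 lower in the KO tumor, and 4 of 11 were higher and 2 lower in the wild-type tumor. Of all genes 12.4% were higher and 18.0% lower in knockout, and 12.9% were higher and 16.3% lower in wild type. The lower counts were near those shares. Those higher in both were Trp63, the AP-2 genes Tfap2a and Tfap2c, and Elf5, a factor of luminal progenitors with 3283 in the KO tumor, 2325 in the wild-type tumor, 693 in the KO gland and 609 in the wild-type gland. The Krüppel-like factor gene Klf4 and Cebpa, which is also a factor of fat cells, were lower than in the gland in both genotypes.

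Other intermediate filament genes were set beside the keratins. Of 10 measured, 3 were compared between the tumors and 5 between the glands, and none passed 2-fold. Of all genes 2.17% were higher and 1.95% lower between the tumors, and 0.992% and 0.261% between the glands. With so few genes compared, none past 2-fold sets them apart neither from all genes nor from the keratins. Vimentin, Vim, the filament of mesenchymal cells, had 5874 in the KO tumor and 11034 in the wild-type tumor, against 7297 in the KO gland and 5340.4 in the wild-type gland, with a log2 difference of -0.91 between the tumors. Desmin, Des, the filament of muscle cells, had 69.1 in the KO tumor and 49.3 in the wild-type tumor, against 923 in the KO gland and 887 in the wild-type gland. The lamin gene Lmna was higher in both tumors than in the glands, with 2210.0 in the KO tumor and 2016 in the wild-type tumor, against 664 in the KO gland and 659 in the wild-type gland.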

How the data were processed

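RNA of 4 pools, each of 5 mice, was measured on Affymetrix arrays, 1 per group, with biotin-labelled cRNA per the labels' protocols. The values deposited are intensity values, 1 linear signal per probe set, and the labels do not name the software. Without its lowest and highest 2% each array had a mean of 500.1 or 500.2, so the authors had scaled the arrays to a common trimmed mean. The values were used as deposited.

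Symbols are those of the platform annotation, and gene identifiers brought 20364 probe sets to RefSeq's symbols. Of 22690 probe sets 20393 had 1 symbol, 691 had several, which were not used, and 1606 were unnamed here. One probe set naming both Krt17 and Krt14 was among those left out. The gene level, offset, floor and 2-fold threshold are as given above. No test was made, the number of arrays limits the precision, and the procedure was tested on simulated data.

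The keratins, lists and thresholds were chosen with earlier results of these data known. The keratins on any array above the floor are given with all signals and the rest as ranges. Some list members past 2-fold are named and others are not, and those named were chosen after their values were seen. The 8 alternatives changed the offset (1, or the median of all values), the scaling (common median or quantile), the floor (none, or the 60th percentile), or the probe sets (without possibly shared ones, or their mean). Python 3.11.15, numpy 2.4.6 and pandas 2.3.3 were used.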

Additional observations from a re-analysis of the deposited data

Results flagged for a closer look

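Krt6a was marked because its genotype difference had opposite signs in the 2 tissues. KO minus wild type came to 1.80 for the gland and -0.54 for the tumor on the log2 scale, 2.34 apart, and both were larger than the median gap between probe sets of a gene (0.24 and 0.17). The difference between the tissues was not tested, since each group had 1 array.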

How the results depend on the processing

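The keratins past 2-fold were 6 between the tumors, 1 between the glands, and 8 in knockout and 13 in wild type between tumor and gland. None of them changed sign under any of the 8 alternatives in which it had a value. Of them 5, 0, 7 and 10 kept their call, that is both the 2-fold difference and the floor, under all of those. Krt10, whose only probe set is possibly shared, had no value in the alternative without such probe sets. In that alternative 4 keratins were lower in the KO tumor than in the wild-type tumor. Of 64 counts under alternatives 54 stayed within 1.5 times the value reported, and the 32 medians moved by less than the median gap between probe sets. With the mean of all probe sets, the count of higher keratins was 0 between the tumors and 0 between the glands, since Krt17 was then at 0.62 between the tumors and Krt6a, at 1.44 between the glands, had mean levels below the floor, while Krt8 was at 1.05 and past 2-fold between the KO tumor and the KO gland. With the median of all values as offset, the count higher between the glands was also 0, with Krt6a at 0.98, and the counts of keratins lower in tumor than gland were 0 in knockout and 0 in wild type, as they were (0 and 0) with the floor at the 60th percentile, which Krt81 did not reach. With no floor these counts were 4 in knockout and 3 in wild type, through dim genes such as Krt36 and Krt77. With a common median for all arrays, 12 keratins were higher in the KO tumor than in the KO gland in place of 7, the 5 added being Krt7, Krt8, Krt10, Krt18 and Krt19. That scaling moved the median of all genes in this comparison from -0.17 to 0.06, and between the glands from 0.04 to -0.15. No paired analysis was possible because each group had 1 array, and no array could be left out.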
